A study of Oryza sativa Indica Group with 16 samples.

Results

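Calmodulin-like (CML) proteins are small calcium sensors. They are built from EF-hands, the helix-loop-helix folds that bind calcium, and apart from these they carry no kinase or other catalytic domain, so a CML acts by binding a target protein when cytosolic calcium rises. Salt, drought and cold each set off such a calcium rise in plant cells, and CML genes are many in rice, whereas true calmodulins are few and nearly identical. The genes described here are those whose symbol or synonym is CML or OsCML followed only by digits and which had at least 1 probe set assigned to them alone by the platform annotation. They numbered 23 genes with 28 probe sets, among 17905 genes with such a probe set and 57258 probe sets in all. Of the names CML1 to CML32, 26 were found in the gene table. CML2, CML21 and CML22 were among these but had no probe set of their own, and CML6, CML12, CML19, CML23, CML25 and CML26 were not found and are not analysed here.

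Transcript levels were measured on Affymetrix rice arrays in 10-day-old seedlings of indica rice. The material was 2 bulks of recombinant inbred lines, a salt-tolerant and a salt-sensitive one, and the 2 parental varieties, CSR27 (tolerant) and MI48 (sensitive). Each of these 4 was sampled after 24 h in 150 mM NaCl and under control conditions. There were 2 arrays in each of the 8 groups, called biological replicates in the labels, which do not say how plants were divided, so p-values measure the spread between these arrays. A bulk is a pool, so the values give no spread between lines, and in whole seedlings fewer cells of a type and less RNA per cell cannot be told apart.

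The 8 bulk arrays resembled each other closely (Spearman rho over probe sets of 0.9 to 0.928), and the results below start from them. Both CSR27 control replicate 2 and CSR27 salt replicate 1 had no rice signal (rho of -0.001 to 0.01 with all others), which leaves 14 arrays. Signals are on a linear scale in arbitrary units, after each array was scaled to a common median, and can be compared between arrays for a probe set but not between probe sets. Of the marker probe sets 15 of 17 for leaf photosynthesis, 20 of 22 for seed endosperm, 5 of 5 for root and 13 of 13 for cell division passed the filter described below. Summed leaf photosynthesis markers were 52573 to 54242 in tolerant bulk salt against 58129 to 82324 in its control, and 67020 to 72062 in sensitive bulk salt against 48312 to 64196 in its control. Summed seed endosperm markers stood at 1708 to 1781 in tolerant bulk salt, 7034 to 7785 in tolerant bulk control, 2450 to 2641 in sensitive bulk salt and 1437 to 1602 in sensitive bulk control. Summed cell division markers were 2346 to 2440 in tolerant bulk salt against 3687 to 3799 in its control, and 1832 to 1931 in sensitive bulk salt against 2870 to 3540 in its control. Summed root markers were 943 to 952 in tolerant bulk salt against 1265 to 1279 in its control, and 885 to 887 in sensitive bulk salt against 821 to 891 in its control. The part of these markers in the results below was not tested.

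Most CML genes were measurable in the seedlings. The test took in probe sets whose signal reached 17.7, the overall median, on 2 or more bulk arrays, and 22 of the 28 probe sets, from 19 of the 23 genes, did so. Of these, 17 probe sets of 16 genes were at or above that value on all 8 arrays. The 6 probe sets that were not tested had signals between 0.473 and 13.6. They were the sole probe sets of CML14, CML24, CML28 and CML32, and additional ones of CML4 and CML10.

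CML10 was the sole CML gene called in both bulks, lower with salt, and its call in the sensitive bulk was lost under several alternatives. Its main probe set had signals of 658 and 529 in tolerant bulk salt, against 1397 and 1454 in tolerant bulk control. It had signals of 645 and 673 in sensitive bulk salt, against 1178 and 948 in sensitive bulk control. All 4 salt arrays thus lay below all 4 control arrays. On the log2 scale the difference was -1.27 ± 0.15 in the tolerant bulk (SE, n = 2 and 2, limma adjusted p = 0.00095), a fold of 0.416, and -0.68 ± 0.15 in the sensitive bulk (limma adjusted p = 0.026), a fold of 0.625. Averaged over both bulks it was -0.97 ± 0.11 (4 salt and 4 control arrays, limma adjusted p = 0.00024). The fall in the tolerant bulk also passed after quantile normalization (-1, limma adjusted p = 0.00093), whereas that in the sensitive bulk did not (-0.45, limma adjusted p = 0.052). The sensitive bulk's call also missed without the filter on low values (limma adjusted p = 0.053), and it held in 3 of the 8 fits that each left out 1 bulk array. It was lost without sensitive bulk control replicate 1 (-0.52), sensitive bulk salt replicate 1 (-0.65) or replicate 2 (-0.71), and without either tolerant bulk control replicate (-0.68 in each, limma adjusted p = 0.058), whose arrays enter the shared spread. The tolerant bulk's call held in all 8. The difference between the responses of the bulks, -0.59 ± 0.21, did not pass (limma adjusted p = 0.63). The other probe set of CML10 had signals of 0.557 to 5.88 and was not tested.

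CML10 was also the sole member called in any bulk comparison. In the averaged salt response 0 of 22 CML probe sets were called higher and 1 lower, whereas 14.9% of all probe sets tested were called, 2.63% higher and 12.3% lower. In the tolerant bulk 0 were called higher and 1 lower, against 5.41% of all, 0.986% higher and 4.43% lower. In the sensitive bulk 0 were called higher and 1 lower, against 6.53% of all, 1.75% higher and 4.78% lower. The single member called is a share near or below that over all probe sets, which is no result about the family. The median log2 difference of the 22 probe sets was -0.28 in the tolerant bulk, where the median over all probe sets was -0.14, and -0.14 in the sensitive bulk, where it was -0.15. Under this median scaling 5 differences were positive and 17 negative in the tolerant bulk, and 9 and 13 in the sensitive bulk. After quantile normalization, which removes the general shift, these medians were -0.09 and -0.01, and 10 and 11 of the 22 probe sets had a positive difference. The individual differences spanned -1.27 to 0.8 in the tolerant bulk and -1.22 to 1.35 in the sensitive bulk. In the tolerant bulk 10 probe sets had both salt arrays below both control arrays, against 38.9% of all probe sets, and 4 had both above, against 16%. In the sensitive bulk 8 had both below, against 33.4%, and 4 both above, against 15.3%. The 10 and the 8 each include CML5 and CML20, which reached the filter on control arrays only.

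**Figure D1:**
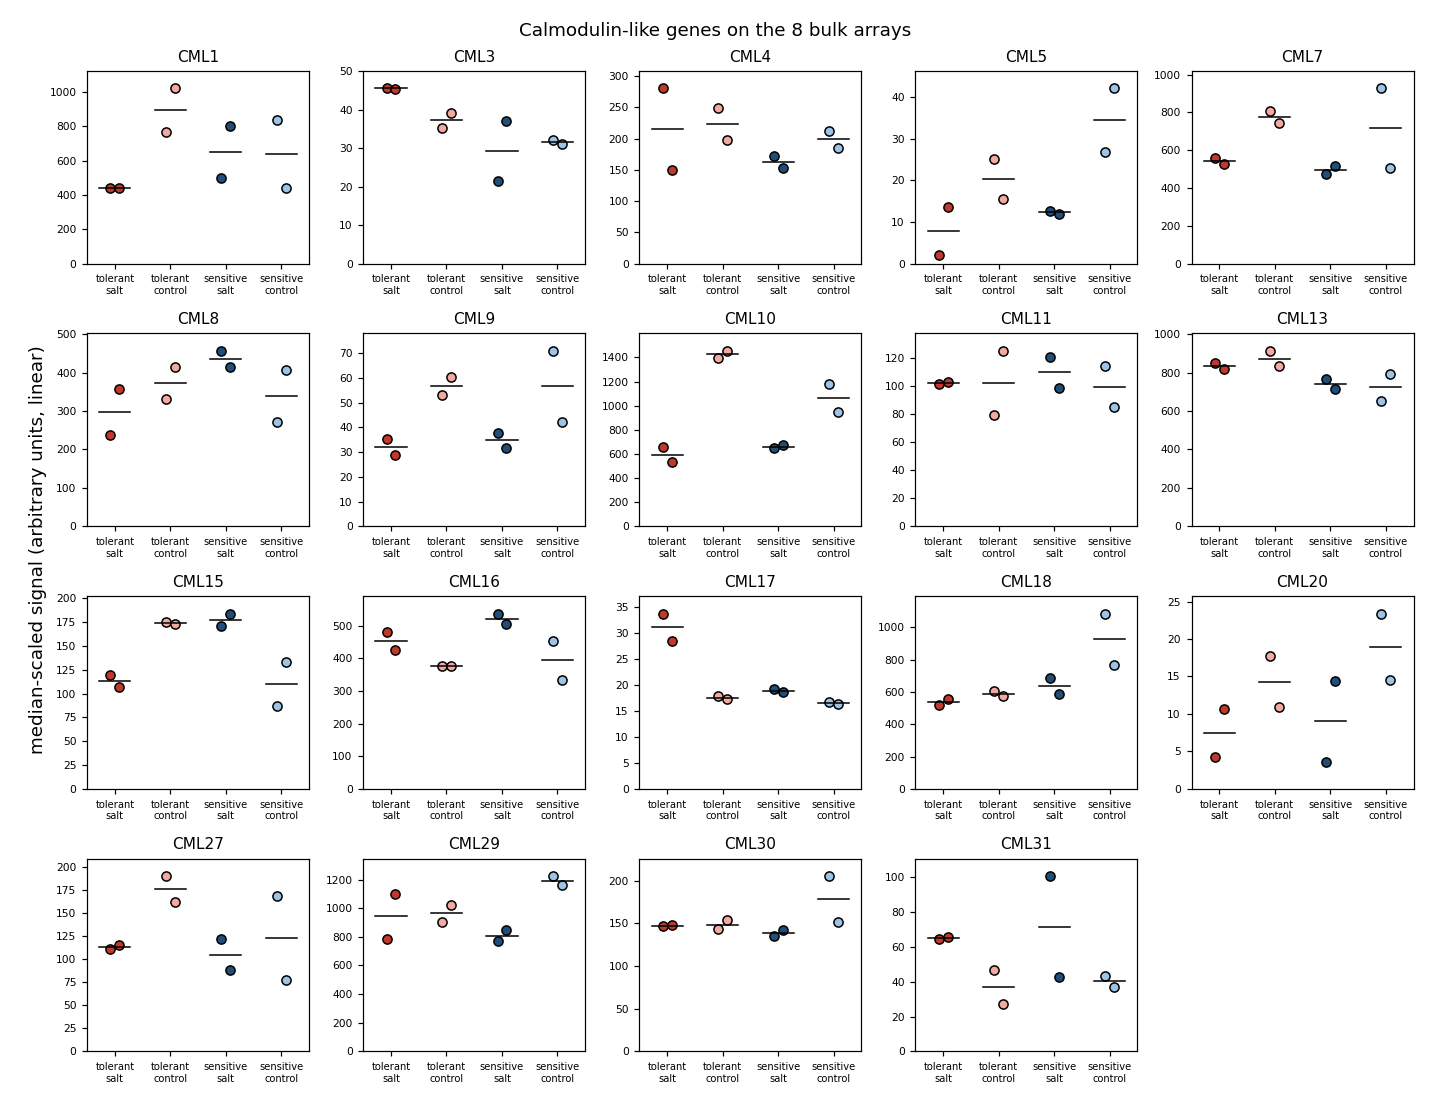
Median-scaled signal (linear axis from 0, arbitrary units) of the main probe set of each of the 19 CML genes tested, on the 8 bulk arrays. Points are arrays and bars are means of 2; CML10 is the gene called in both bulks, with 529 to 673 on its 4 salt arrays and 948 to 1454 on its 4 control arrays, and CML15 is lower with salt in the tolerant bulk and higher with salt in the sensitive bulk.

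CML16 is a gene that has been tied to drought and abscisic acid responses in rice. It had 479 and 426 in tolerant bulk salt against 375 and 375 in its control, and 537 and 504 in sensitive bulk salt against 454 and 333 in its control. Salt arrays lay above control arrays in each bulk, without overlap. Under median scaling the differences of 0.27 ± 0.16 and 0.42 ± 0.16 did not pass (limma adjusted p = 0.43 and 0.16). Under quantile normalization they were 0.47 (limma adjusted p = 0.046) in the tolerant bulk and 0.66 (limma adjusted p = 0.0086) in the sensitive bulk, so whether CML16 is called depends on the scaling. Under that normalization CML10 and CML16 were the members called in the averaged response (12% of all called) and in the tolerant bulk (5%), and CML16 alone in the sensitive bulk (6.48%).

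Of the members that were not called, CML5, CML20 and CML31 had the averaged differences farthest from 0 at their main probe sets. CML5, listed also as OsCAM-2, gave 1.99 and 13.7 in tolerant bulk salt against 25.2 and 15.4 in its control, and 12.6 and 12 in sensitive bulk salt against 26.8 and 42.1 in its control. Its salt arrays were below the controls in both bulks, and the averaged difference was -1.22 ± 0.41 (limma adjusted p = 0.069). The signals are near the limit of what was tested, and the second probe set of CML5 had 0.28 ± 0.57, with 43 on sensitive bulk salt replicate 1 and 3.19 to 21.4 on the other 7 arrays.

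CML20 gave 4.27 and 10.7 in tolerant bulk salt against 17.7 and 10.9 in its control. It gave 3.59 and 14.4 in sensitive bulk salt against 23.4 and 14.5 in its control. Replicate 2 with salt lay next to replicate 2 without salt in each bulk, and the averaged difference was -0.83 ± 0.45 (limma adjusted p = 0.27). CML20 too reached 17.7 on control arrays only. CML31, studied under the name OsMSR2 as a gene that raises salt tolerance when expressed in Arabidopsis, had 64.5 and 66 in tolerant bulk salt against 46.9 and 27.2 in its control. In the sensitive bulk it had 101 and 42.6 with salt against 43.6 and 36.8 without. The bulks shared a positive sign, but salt replicate 2 of the sensitive bulk lay within its control values. The averaged difference of 0.73 ± 0.27 did not pass (limma adjusted p = 0.093), nor did it after quantile normalization (0.82, limma adjusted p = 0.068).

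The remaining genes are described after their values were seen. CML9 had 35.3 and 28.9 in tolerant bulk salt against 53.2 and 60.6 in its control, and 37.9 and 31.7 in sensitive bulk salt against 71 and 42.4 in its control. Its groups did not overlap in either bulk, and the averaged difference was -0.69 ± 0.21 (limma adjusted p = 0.052). CML7 had 559 and 526 in tolerant bulk salt against 809 and 742 in its control, and 473 and 518 in sensitive bulk salt against 927 and 508 in its control. The averaged difference of CML7 was -0.49 ± 0.16 (limma adjusted p = 0.064), and sensitive bulk control replicate 2 lay among the salt arrays. CML17, in contrast, had higher signals with salt, of 33.7 and 28.5 against 17.8 and 17.3 in the tolerant bulk and 19.2 and 18.6 against 16.6 and 16.3 in the sensitive bulk. Its differences of 0.71 ± 0.37 and 0.16 ± 0.37 did not pass (limma adjusted p = 0.34 and 0.84), at signals close to the limit of 17.7.

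In all, 5 of the 22 probe sets lay lower with salt without overlap in both bulks (CML5, CML9, CML10, CML18 and CML20), 2 lay higher in both (CML16 and CML17), and 1 moved apart (CML15). CML5 and CML20 reached the limit of 17.7 on control arrays only, so the filter took part in placing them among the 5. Shares over all probe sets were taken for the tolerant and the sensitive bulk apart, 38.9% and 33.4% lower and 16% and 15.3% higher. No joint share was taken, so these counts are no result about the family. Under median scaling, 9 of 22 passed an unadjusted p under 0.05 in the averaged response, against 28.7% of all probe sets. In the tolerant bulk 5 did so, against 19%, and in the sensitive bulk 5, against 22.5%. After quantile normalization the counts were 5, 5 and 6 of 22 in the same order. The matching shares of all probe sets are not given, so these too are no result about the family.

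**Figure D2:**
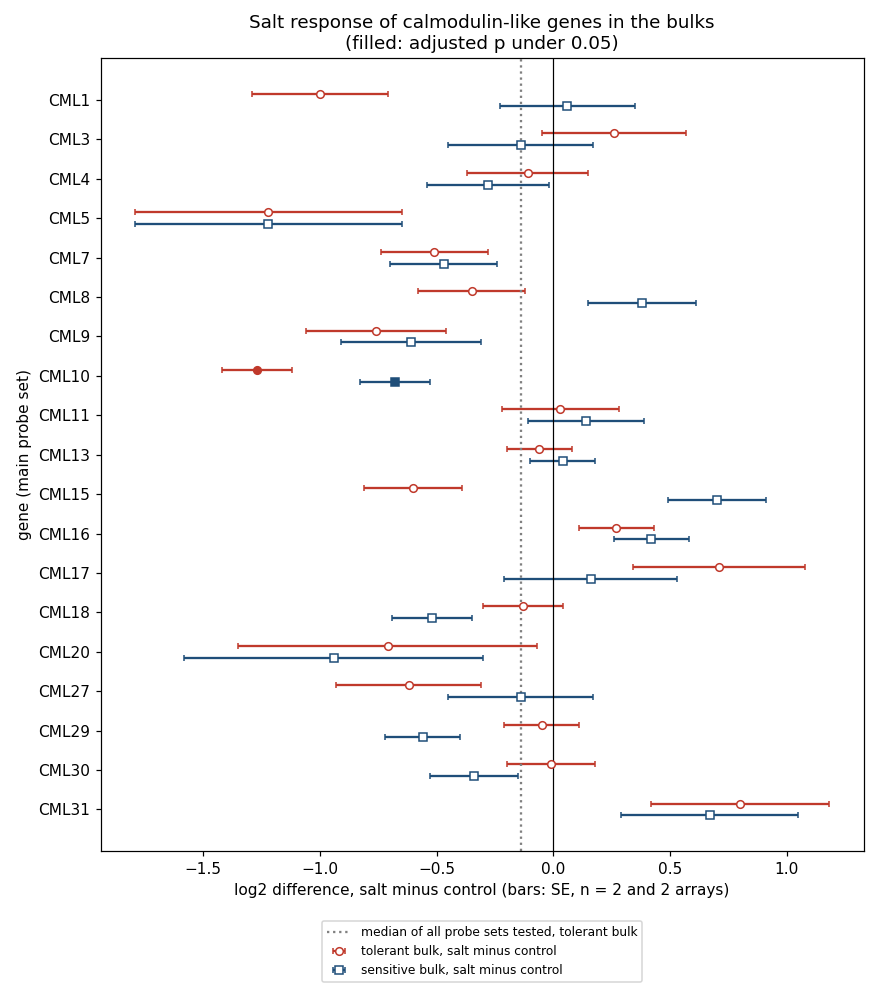
Log2 difference, salt minus control, of the main probe set of the 19 CML genes tested, with the SE from limma (n = 2 and 2 arrays); circles are the tolerant bulk, squares the sensitive bulk, and filled symbols have an adjusted p under 0.05. CML10 is filled in both bulks at -1.27 and -0.68, and the dotted line marks the median of all probe sets in the tolerant bulk, -0.14.

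The question of whether the bulks respond differently was tested as the difference of their responses, tolerant minus sensitive. No CML probe set passed (limma, 0 of 22, with 4 at an unadjusted p under 0.05), against 0.173% of all probe sets called and 6.87% at an unadjusted p under 0.05. CML15 had the lowest unadjusted p among them. Its signals were 120 and 107 in tolerant bulk salt against 175 and 173 in its control, but 171 and 184 in sensitive bulk salt against 87.1 and 133 in its control. The responses ran in opposite directions without overlap, -0.6 ± 0.21 in the tolerant bulk (limma adjusted p = 0.14) and 0.7 ± 0.21 in the sensitive bulk (limma adjusted p = 0.078). Their difference was -1.3 ± 0.3 (unadjusted p = 0.0012, limma adjusted p = 0.25), and -1.32 after quantile normalization (limma adjusted p = 0.3). Without sensitive bulk control replicate 2 it was -1.59, but that fit left 1 array in the group, so no pass is read from it. The summed leaf photosynthesis markers given above also ran lower with salt in the tolerant and higher in the sensitive bulk, as did the summed seed endosperm markers. For leaf photosynthesis the rise depended on the scaling. Its median log2 difference in the sensitive bulk was 0.35, but -0.01 after quantile normalization, against -0.46 and -0.18 in the tolerant bulk. For seed endosperm the sensitive bulk had 0.47 and 0.52. The part of these markers in the CML15 result was not tested.

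CML10, given above, CML1 and CML8 were the other 3 at an unadjusted p under 0.05. CML1 encodes OsCaM61, a calmodulin with a long C-terminal tail that can be prenylated and so held at membranes. It had 442 and 439 in tolerant bulk salt against 766 and 1023 in its control, and 500 and 801 in sensitive bulk salt against 837 and 438 in its control. The tolerant bulk's salt and control arrays were well apart, whereas the sensitive bulk's overlapped. The response was -1 ± 0.29 in the tolerant bulk (limma adjusted p = 0.077) and 0.06 ± 0.29 in the sensitive bulk (limma adjusted p = 0.93), and the difference of -1.06 ± 0.41 did not pass (limma adjusted p = 0.66). CML8 had differences of -0.35 ± 0.23 and 0.38 ± 0.23 in the tolerant and the sensitive bulk, with -0.73 ± 0.33 between them (limma adjusted p = 0.73).

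Without salt no CML probe set passed between the bulks (limma, 0 of 22, with 3 at an unadjusted p under 0.05), against 1.46% of all called and 14.1% at an unadjusted p under 0.05. CML18 had 605 and 573 in tolerant bulk control against 1085 and 770 in sensitive bulk control. The tolerant arrays lay below the sensitive ones, by 0.63 ± 0.17 (log2, limma adjusted p = 0.11), and after quantile normalization the difference of -0.76 passed (limma adjusted p = 0.011), as the sole member called, against 2.19% of all. In 6 of the 22 probe sets both tolerant arrays lay above both sensitive ones, against 26.9% of all, and in 3 below, against 14.7%. CML15 had 175 and 173 in tolerant bulk control against 87.1 and 133 in sensitive bulk control, a difference of 0.67 ± 0.21 (limma adjusted p = 0.17). CML10 had 0.43 ± 0.15 (limma adjusted p = 0.23). Signals of CML29, by comparison, were 907 and 1023 in tolerant bulk control and 1223 and 1163 in sensitive bulk control, a difference of -0.31 ± 0.16 (limma adjusted p = 0.44).

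Under salt no CML probe set passed between the bulks either (limma, 0 of 22, with 2 at an unadjusted p under 0.05), against 1.28% of all called and 15% at an unadjusted p under 0.05. CML15 was lower in tolerant than in sensitive bulk salt on every array, 120 and 107 against 171 and 184 (-0.62 ± 0.21, limma adjusted p = 0.2). CML8 had 237 and 358 in tolerant bulk salt against 457 and 416 in sensitive bulk salt (-0.57 ± 0.23, limma adjusted p = 0.28). For CML10 the groups overlapped, with -0.16 ± 0.15 (limma adjusted p = 0.67), so after salt its level was not told apart between the bulks. In 5 of the 22 probe sets both tolerant arrays lay above both sensitive ones, against 33.8% of all, and in 6 below, against 17.5%.

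The averaged difference was between -0.2 and 0.09 for CML13, CML30, CML11, CML4 and CML3. CML13, read by a probe set of the x_at type, which can also bind related transcripts, had a highest signal 1.4 times its lowest, and its averaged difference was -0.01 ± 0.1. CML30 had signals of 135 to 205 and CML11 of 79.4 to 125, with averaged differences of -0.18 ± 0.13 and 0.09 ± 0.17. CML4, a gene whose overexpression has been linked to drought tolerance in rice, had averaged differences of -0.2 ± 0.18 and -0.13 ± 0.12 at its 2 tested probe sets. CML3 had 0.06 ± 0.22. Averaged differences were lower for CML27, with -0.38 ± 0.22 at its main probe set and -0.54 ± 0.44 at its other tested one. They were also lower for CML29 and CML18, with -0.31 ± 0.12 and -0.32 ± 0.12 (limma adjusted p = 0.11 and 0.099). CML29 had 785 and 1101 in tolerant bulk salt against 907 and 1023 in its control, and 770.3 and 847 in sensitive bulk salt against 1223 and 1163 in its control. Its groups were apart in the sensitive bulk alone, with -0.56 ± 0.16 there (limma adjusted p = 0.068) and -0.05 ± 0.16 in the tolerant bulk (limma adjusted p = 0.91). CML18 lay lower with salt without overlap in both bulks, 521 and 558 against 605 and 573 in the tolerant bulk and 688 and 586 against 1085 and 770 in the sensitive bulk (-0.13 ± 0.17 and -0.52 ± 0.17, limma adjusted p = 0.76 and 0.097).

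Among the bulk groups the control arrays of the sensitive bulk differed most from each other. The median absolute log2 difference between replicates over the 22 CML probe sets was 0.47 in sensitive bulk control, against 0.16 in tolerant bulk salt, 0.16 in sensitive bulk salt and 0.18 in tolerant bulk control. Over all probe sets it was 0.38, against 0.22, 0.22 and 0.19. Replicate 1 of sensitive bulk control was the higher for 16 of the 22. Leaving out replicate 2 of that group left it 1 array with no spread of its own, so calls of that fit are no result about the family. The response of CML10 in the sensitive bulk was then -0.84 and that of CML15 was 0.99.

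Other calcium signalling genes were counted by the same test. In the averaged salt response 1 of 3 true calmodulin probe sets fell and 0 rose, namely CAM2 (-0.35 ± 0.1, limma adjusted p = 0.039), and after quantile normalization 0 of 3 were called. Among calcineurin B-like sensors 1 of 7 fell and 0 rose. This was CBL4, whose Arabidopsis counterpart SOS3 activates the SOS pathway of sodium export, at -1.27 ± 0.26 in the tolerant bulk (limma adjusted p = 0.018) and -1.12 ± 0.26 in the sensitive bulk (limma adjusted p = 0.031). After quantile normalization the fall of CBL4 in the sensitive bulk did not pass (-0.96, limma adjusted p = 0.069). Of 31 probe sets of CIPK genes, the kinases that CBL sensors bind, 10 fell and 2 rose, against 7 and 2 after quantile normalization. Several of those that fell under median scaling belong to CIPK10, so by gene 7 of the 23 tested fell and 2 rose.

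Of 18 probe sets of calcium-dependent protein kinases 5 fell and 0 rose, against 2 and 1 after quantile normalization. CPK1 fell in both bulks, with -0.84 ± 0.13 in the tolerant and -0.85 ± 0.13 in the sensitive bulk (limma adjusted p = 0.0035 in each). The glutamate receptor-like gene GLR3.1 had both of its 2 probe sets called lower, the larger at -1.14 ± 0.19 (limma adjusted p = 0.0027), and 1 of 2 after quantile normalization. The calcium pump gene ACA5 rose by 0.87 ± 0.17 (limma adjusted p = 0.0063), 1 of 6 calcium pump probe sets, under both scalings. None of 4 CAX exchanger probe sets and not the 1 probe set of an RBOH oxidase gene was called. No gene carried a CNGC, CAMTA or OSCA name in the form searched. Against the 14.9% called among all probe sets, 1 of 22 CML probe sets, 12 of 31 CIPK and 5 of 18 calcium-dependent kinase probe sets were called. The CIPK count holds several probe sets of CIPK10. These counts describe the lists and were not tested against each other.

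In MI48 the arrays were uneven in brightness, with median signals of 86.3 and 4.6 with salt and 1.9 and 1.5 in control before scaling, and the CML differences depended on the scaling. Fitted alone, the 4 MI48 arrays gave no call among the 22 CML probe sets that passed the filter there, which include all 3 of CML4 and 1 of the 2 of CML5 (limma, 0 of 22, with 11 at an unadjusted p under 0.05) and none among all 31067 probe sets tested, 0%, with 23.7% at an unadjusted p under 0.05. Under median scaling all 22 tested differences were positive, with a median of 1.22, where the median over all probe sets was itself 0.76. After quantile normalization 16 were positive and 6 negative, with a median of 0.49 against 0.07 over all, and 4 of 22 passed an unadjusted p under 0.05, against 11.4% of all. Tissue markers also differed with salt in MI48 under median scaling. Their median log2 difference was -3.91 for 4 root and -1.89 for 12 cell division probe sets. It was 1 for 16 leaf photosynthesis and 0.4 for 8 seed endosperm probe sets. The part of these markers in the MI48 results was not tested.

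CML16, CML15 and CML31 had the largest differences in MI48 under median scaling. CML16 had 371 and 896 in MI48 salt, against 23.5 and 13.2 in MI48 control. Both salt arrays were brighter than both control arrays after scaling, with a log2 difference of 4.98 ± 0.64 (limma adjusted p = 0.14) and of 3.79 ± 0.56 after quantile normalization (limma adjusted p = 0.4). CML15 had 72.1 and 200 in MI48 salt against 8.4 and 9.46 in MI48 control, a difference of 3.67 ± 0.64 (limma adjusted p = 0.14), and 2.73 ± 0.61 after quantile normalization (limma adjusted p = 0.4).

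CML31 had 91.7 and 191 in MI48 salt against 10.9 and 16 in MI48 control, a difference of 3.27 ± 0.58 (limma adjusted p = 0.14), and 2.15 ± 0.6 after quantile normalization. CML18 had 182 and 324 in MI48 salt against 45.9 and 36.1 in MI48 control (2.56 ± 0.54, limma adjusted p = 0.14), and 1.25 ± 0.5 after quantile normalization (limma adjusted p = 0.42). Under median scaling the salt arrays of each of these 4 genes lay above the control arrays. The same held for 17 of the 22 CML probe sets, against 45.5% of all, while 0 of the 22 lay below, against 9.35%. The 17 include CML20, which passed the MI48 filter of 2.96 through its salt arrays only. After quantile normalization, where 6 of the 22 differences were negative, overlap was not taken, so these counts are no result about the family. CML10 had 125 and 157 in MI48 salt against 87.8 and 41.2 in MI48 control, 1.21 ± 0.57 under median scaling and -0.11 ± 0.5 after quantile normalization, so no direction can be given for it.

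CSR27 had 1 array with rice signal per condition, so its values have no replicate check and no test is given. Of 18 CML probe sets that reached the overall median on both arrays, 9 had a positive and 8 a negative log2 difference with salt and 1 had a difference of 0 to 2 decimals, with a median of 0.03 where all probe sets had -0.21. After quantile normalization 12 were positive and 5 negative, with a median of 0.24 where all probe sets had 0, so the split depends on the scaling. CML10 had 24.5 on the salt array against 66.5 on the control array, a log2 difference of -1.43, and -1.01 after quantile normalization. CML31 had 23.2 on the salt array against 6.61 on the control array (1.76), and CML16 had 58.8 against 28 (1.06). CML29 had 6.97 on the salt array against 25 on the control array (-1.79), and CML8 had 38.7 against 13.9 (1.45).

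Set side by side, the differences of CML10 with salt were -1.27 in the tolerant bulk, -0.68 in the sensitive bulk, -1.43 on the CSR27 arrays and 1.21 or -0.11 in MI48 by the scaling. CML16 had 0.27, 0.42, 1.06 and 4.98 in the same order under median scaling, and CML31 had 0.8, 0.67, 1.76 and 3.27. The sign of CML16 and of CML31 was thus positive in all 4 genotypes under both scalings. Neither gene passed the test in a bulk or in MI48 under median scaling, and CSR27 had no test. The share of all probe sets with a positive sign in all 4 was not taken. Differences between a parent and a bulk were not tested, since the parent arrays were scaled apart.

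**Figure D3:**
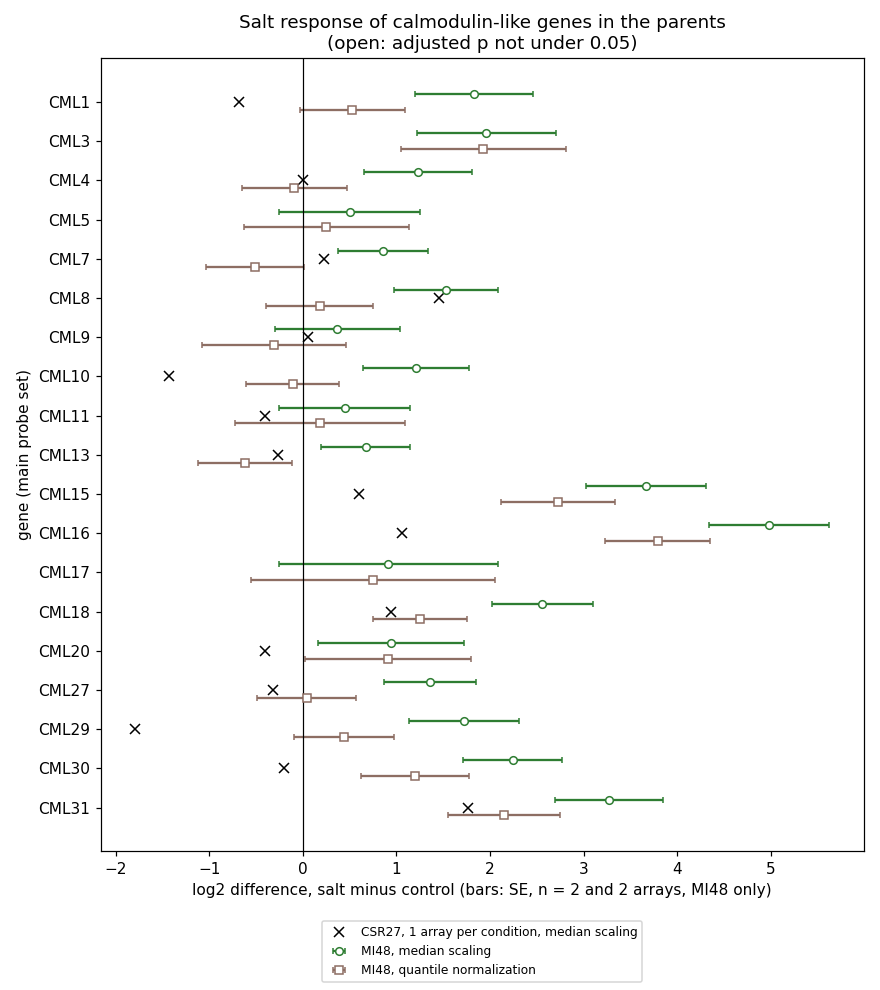
Log2 difference, salt minus control, of the same 19 CML probe sets in the parents. Circles (median scaling) and squares (quantile normalization) are MI48 with the SE from limma (n = 2 and 2 arrays), all open because no adjusted p was under 0.05, and crosses are CSR27 with 1 array per condition, shown where both values reached the overall median; the MI48 values are lower for every gene under quantile normalization, with CML16 at 3.79 in place of 4.98.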

How the data were processed

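For each array the authors deposited the linear intensity of every probe set, and the submitters' processing notes name GCOS 1.2. How GCOS was set and scaled, and its detection calls, were not found in the labels or file headers. The 123 control probe sets were left out. Array medians ran from 0.4 to 86.3, so arrays were scaled to a common median, separately for the 8 bulk, the 4 MI48 and the 2 usable CSR27 arrays. A pseudocount (3.86, 0.591 and 0.327) was added before log2, which shrinks the folds of dim probe sets. The test covered probe sets that reached the overall median on 2 or more arrays (32977 in the bulks) with limma 3.58.1 in R 4.3.3 (intensity trend, two-sided, Benjamini-Hochberg over all tested, threshold 0.05). The code was tested on simulated data.

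Probe sets were named through the platform annotation and a gene table of assembly ASM3414082v1: 22436 had 1 gene, 95 several and 34727 none, and all 17905 gene IDs matched. A gene's main probe set is the one with the highest mean over the bulk arrays. Values on every array were to be given for members called in the bulks and for the 3 others with the largest averaged response, and further genes are named as chosen later. Lists were matched by symbol or synonym. An abscisic acid receptor gene caught by the leaf pattern was dropped, and CML1 was kept out of the calmodulin list. Members, lists and fits, including the separate fit of the bulks, were chosen with earlier results of these data known.

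Replicate numbers did not pair the bulk arrays: the differences between replicates 1 and 2 correlated at 0 to 0.03 over 6 pairs of groups (0.12 for the 1 pair of MI48 groups). The alternatives varied the scaling (quantile), the filter (none), the pseudocount (0.25 of it), the replicate block, the arrays fitted together (14, 16 or only the 4 compared) and the single arrays omitted. The number of arrays limits the precision.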

Additional observations from a re-analysis of the deposited data

How the results depend on the processing

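Counts of CML probe sets called with limma (of 22 tested, 28 without a filter, 24 in the 14-array fit and 27 in the 16-array fit) varied with the arrays fitted. Except for quantile normalization, the share of all probe sets called is not given for these alternatives. Each fit that left out an array also left 1 array in its group. The counts thus show how calls depend on the processing and are no result about the family. For the averaged salt response (1 under the reported settings) the count was 2 after quantile normalization, 4 with the replicate block and 1 to 6 when each array was left out, with 6 without sensitive bulk control replicate 2 and 3 without sensitive bulk control replicate 1 or tolerant bulk salt replicate 2. For the tolerant bulk (1) it was 2 after quantile normalization, 5 with only the 4 arrays compared and 1 to 5 when each bulk array was left out, with 5 without either sensitive bulk control replicate. For the sensitive bulk (1) it was 1 after quantile normalization but of CML16 in place of CML10, 0 without a filter, 2 with the replicate block, 0 with only the 4 arrays compared and 0 to 8 when each bulk array was left out. Leaving out arrays of the other bulk, which share the spread, was chosen after seeing the data. Between the bulks in control (0) it was 1 after quantile normalization and 0 to 4 when each array was left out, in salt (0) it was 1 with only the 4 arrays compared, and for the difference of the responses (0) it was 0 to 1, called without sensitive bulk control replicate 2. In the fit of 14 arrays the averaged, tolerant and sensitive counts were 0, 0 and 0 (3, 1 and 0 at an unadjusted p under 0.05), and in that of all 16 arrays 0, 0 and 0 (0, 0 and 0), and the cause was not tested. In MI48 (0) the 14-array fit called 13, all higher, and the 16-array fit 1, CML15. The 14-array fit kept the median scaling, under which the MI48 arrays fitted alone had a median of 0.76 over all probe sets. Among the 13 were CML10 and 2 probe sets of CML4, at 1.21, 1.23 and 1.21. After quantile normalization of the MI48 arrays these were -0.11, -0.09 and -0.12, so the direction of such calls depends on the scaling. The other counts stayed within 1.5 times. CML10 stayed negative in the averaged response under every alternative run and passed in all except the 14-array (adjusted p = 0.32) and 16-array fits (adjusted p = 1). When each array was left out it ranged from -1.05 to -0.89 there, and from -1.42 to -1.11 in the tolerant bulk. CML10, the sole member called under the reported settings, changed sign in none of the comparisons where it was so called. The replicate block changed no call of CML10. It added CML7, CML9 and CML31 (-0.49, -0.69 and 0.73) in the averaged response and CML29 (-0.56) in the sensitive bulk. With 2 arrays a group and no detection calls, members near the filter, such as CML5, CML17 and CML20, cannot be judged.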
